A study of Rattus norvegicus with 5 samples.

Results

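The genes described here belong to the response of cells to a shortage of amino acids and to related stress, 10 genes in rat lung: Asns, Psat1, Bcat1, Slc7a1, Slc7a5, Slc3a2, Trib3, Ddit3, Nupr1 and Eif4ebp1. They are 10 of the 4736 genes that the array's annotation names through a probe set with a single symbol, and all of their 19 probe sets of 7006 such probe sets are included. The genes were selected from the known pathway with measured values of these same 5 arrays in view, so their values are a description and carry no test.

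The study profiled rat lung RNA with 5 one-colour oligonucleotide arrays, 1 per group, each given a pool of RNA. Exposure was to EHC-93, a preparation of urban particulate matter, instilled into the trachea. Pools of lungs taken 2, 4 and 6 h after exposure make up the early array, 15, 18 and 21 h the intermediate array and 24, 32 and 40 h the late array. Saline instillation, pooled over 2, 15 and 24 h, is the sham array, and a pool of 3 rats with no instillation is the untreated array. The sources used here do not state the animals' strain, sex and age or the number of rats behind the instilled pools. The sham pool shares the 2 h, 15 h and 24 h times with the exposed pools but mixes them, so no phase has a saline control of its own. With 1 array per group there is no replicate check on any difference, and none carries an error or a p-value. All 3 phases are set against the same 2 control arrays. The number of arrays limits the precision.

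Cells sense uncharged tRNA through the kinase Gcn2 (Eif2ak4) and misfolded protein in the endoplasmic reticulum through the kinase Perk (Eif2ak3). Both phosphorylate the initiation factor eIF2, which lowers most protein synthesis but favours translation of the transcription factor ATF4. ATF4 pairs with C/EBP proteins and activates genes that import and make amino acids, together with the regulators CHOP (Ddit3) and Trib3. Most of this is known from human and mouse cells. Atf4 and Eif2ak4 themselves were not named by any probe set with a single symbol. Probe sets with several symbols were not searched for them. The same rule applies below wherever listed genes are said to be on the array.

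ATF4 and C/EBP partners bind a composite element with the core TGATGNAA, which reads TTNCATCA on the other strand. RefSeq promoter windows of the rat assembly GRCr8, covering 250 bases before to 50 bases after the annotated start, were matched for 9 of the 10 genes (all but Eif4ebp1), in 11 windows because Slc3a2 and Bcat1 have more than 1. The core was found, searching both strands, in 3 of the 11 windows, those of 3 genes, against 3.98% of all 33469 windows. The genes were selected from the known pathway, so this share is a description and not evidence for the group. The 3 windows are shown because they hold the letters of the element, which are in capitals. The match begins 21 bases before the annotated start in Trib3 (chr3:161275484-161275783, minus strand), 30 bases before it in Slc7a1 (chr12:11664238-11664537, plus strand) and 55 bases before it in Nupr1 (chr1:190645852-190646151, minus strand). In Slc7a1 the core reads in the direction of the gene, and in Trib3 and Nupr1 it reads on the opposite strand. A match is a description of the letters, not a binding site, and the missing match in the other windows says only that the letters are not there.
Trib3: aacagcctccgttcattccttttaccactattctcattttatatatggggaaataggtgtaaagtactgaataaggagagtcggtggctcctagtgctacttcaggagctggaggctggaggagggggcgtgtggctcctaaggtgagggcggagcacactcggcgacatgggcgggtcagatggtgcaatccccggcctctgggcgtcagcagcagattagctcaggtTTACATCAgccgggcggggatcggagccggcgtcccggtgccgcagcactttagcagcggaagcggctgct
Slc7a1: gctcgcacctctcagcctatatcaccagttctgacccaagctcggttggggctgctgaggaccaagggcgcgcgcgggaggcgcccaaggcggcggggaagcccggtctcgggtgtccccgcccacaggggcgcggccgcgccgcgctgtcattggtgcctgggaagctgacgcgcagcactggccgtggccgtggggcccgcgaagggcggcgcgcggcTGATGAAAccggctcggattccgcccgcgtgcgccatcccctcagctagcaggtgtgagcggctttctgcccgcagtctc
Nupr1: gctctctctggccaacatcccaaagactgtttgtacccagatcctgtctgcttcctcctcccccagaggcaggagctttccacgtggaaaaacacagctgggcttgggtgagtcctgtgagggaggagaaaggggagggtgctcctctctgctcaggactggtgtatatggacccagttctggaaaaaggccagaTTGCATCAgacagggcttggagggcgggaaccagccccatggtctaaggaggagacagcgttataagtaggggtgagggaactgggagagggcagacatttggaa

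Values are deposited linear intensities scaled to the same array median, called scaled intensities here. Values up to 173, the 40th percentile of all scaled values, were treated as a floor, and where the lower value of a fold lay at the floor the fold is only a lower bound, marked "at least". A probe set was called higher or lower on an exposed array where it was at least 2-fold above or below both the sham and the untreated array. Of the 19 probe sets 17 exceeded the floor somewhere, 12 of them on all 5 arrays. The exceptions were a probe set of Slc7a1 and a probe set of Psat1, which stayed under the floor on every array. Comparisons of level are made within a probe set.

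The amino acid transporters Slc7a1 and Slc7a5, the enzymes Asns and Bcat1 and the regulator Trib3 each had a probe set higher on the early array than on both control arrays. The other Trib3 probe set, rc_H31287_at, read 467 in untreated lung and was under the floor on the early array. In that phase 5 of the 17 measured probe sets, of the 5 genes Asns, Bcat1, Slc7a1, Slc7a5 and Trib3, were called higher than both controls, between 2.26-fold and at least 2.90-fold by the smaller of the folds. No member was called lower. Among all 5931 probe sets measured in that comparison, 3.3% were called higher and 0.472% lower. Because the members were chosen with these arrays in view, their share of 29.4% is not evidence for the group. With arrays scaled to their 75th percentile Asns missed the call, and with the floor at the 60th percentile Slc7a5 alone was called. Of the 17 probe sets 14 were above both controls by any amount and none was below both, against 36.8% above both and 31.2% below both over all probe sets.

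**Figure D1:**
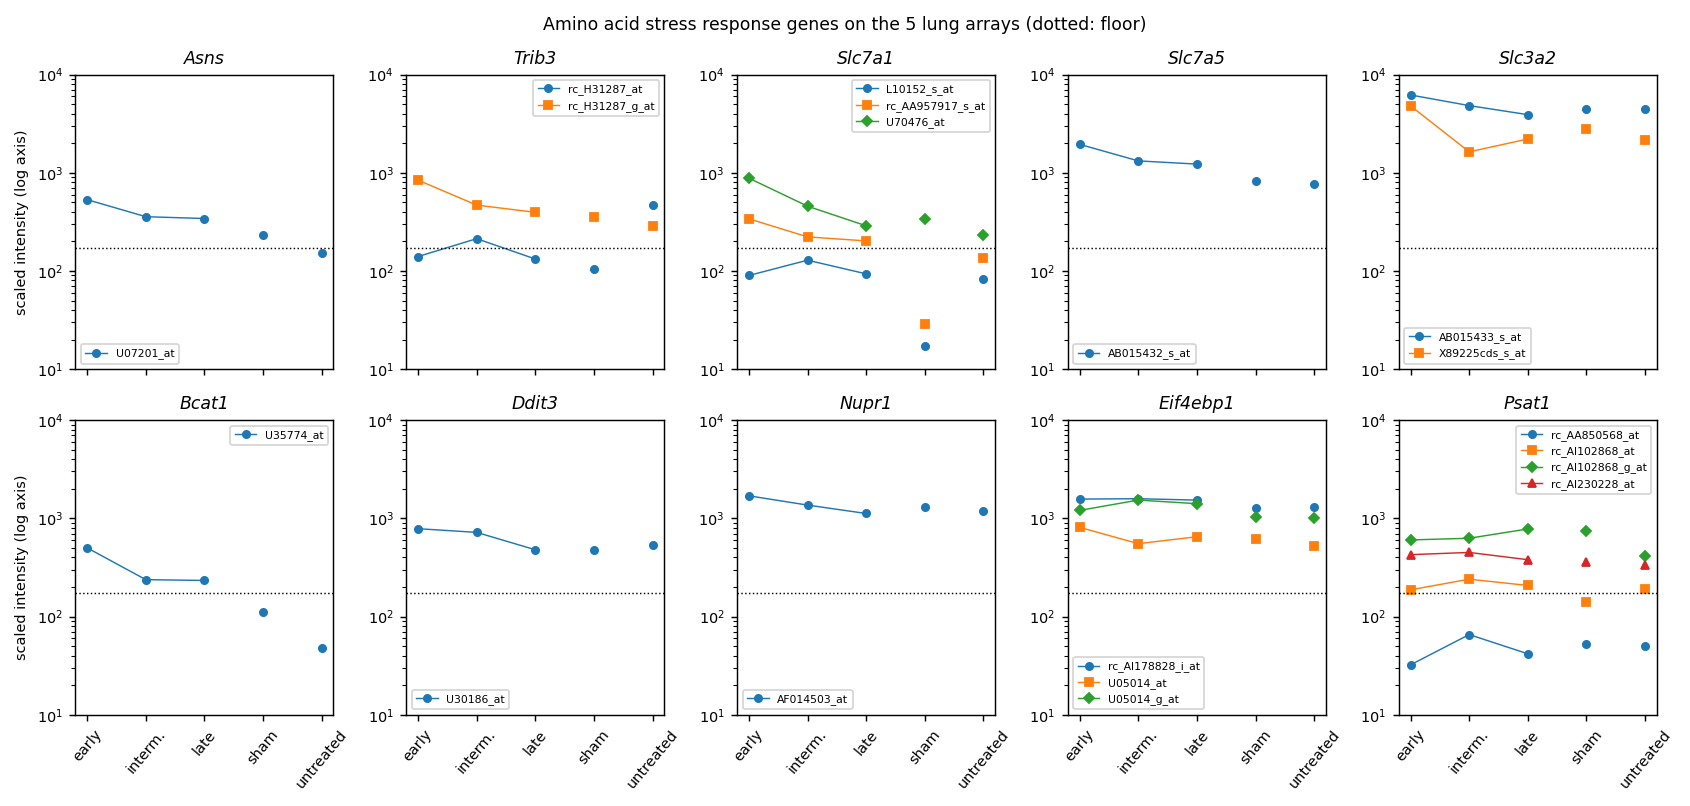
Scaled intensity (log axis) of every probe set of the 10 genes on the early, intermediate, late, sham and untreated arrays, with the floor of 173 as a dotted line; lines join the exposed phases only. The early array holds the highest value for Asns, Slc7a5, Bcat1, both Slc3a2 probe sets and the Slc7a1 probe sets above the floor, while the pair of Trib3 probe sets differs in shape and no Eif4ebp1 or Psat1 probe set is called.

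Asns, asparagine synthetase, makes asparagine from aspartate and glutamine. Its probe set U07201_at had scaled intensities of 532 early, 357 intermediate and 342 late, against 235 in sham lung and a value under the floor in untreated lung. The early array was 2.26-fold above sham and at least 3.08-fold above untreated. The intermediate and late arrays were 1.52-fold and 1.46-fold above sham, short of a call. The sham array was itself at least 1.36-fold above the untreated array.

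Bcat1 is the cytosolic aminotransferase that starts the breakdown of leucine, isoleucine and valine. U35774_at had scaled intensities of 500 early, 238 intermediate and 233 late, against values under the floor on both the sham and the untreated array. It was above the floor on the exposed arrays alone. The early array was at least 2.90-fold above both controls, the intermediate array at least 1.38-fold and the late array at least 1.35-fold. The early value was 2.11-fold above the intermediate and 2.15-fold above the late value.

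Psat1, the aminotransferase of the serine synthesis pathway, had 4 probe sets and no call in any phase. The probe set rc_AI102868_g_at had scaled intensities of 603, 627 and 780 in the early, intermediate and late pools, against 745 in sham and 411 in untreated lung. The sham array lay among the exposed arrays, 1.81-fold above the untreated array, which was below all others. For rc_AI230228_at the values were 427, 450 and 379 on the exposed arrays, against 360 in sham and 337 in untreated lung. These differ by at most 1.25-fold from sham. The third measured probe set, rc_AI102868_at, lay between 187 and 240 on the exposed arrays, against a value under the floor on sham and 191 on the untreated array.

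Among the transporters, Slc7a1 encodes the cationic amino acid transporter CAT-1, which carries arginine and lysine. U70476_at had scaled intensities of 881 early, 457 intermediate and 288 late, against 335 in sham and 231 in untreated lung. Only the early array was called, at 2.63-fold over sham and 3.81-fold over untreated. The intermediate array was 1.36-fold and 1.98-fold above them, short of a call, and the late array lay between the controls. The early value was 1.93-fold above the intermediate and 3.06-fold above the late value. A second Slc7a1 probe set, rc_AA957917_s_at, read 340, 222 and 202 in the early, intermediate and late pools, against values under the floor on both controls. Its order over the phases was the same, and at least 1.97-fold on the early array put it just short of a call.

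Slc7a5 is LAT1, the carrier of large neutral amino acids such as leucine, and Slc3a2 is CD98, the heavy chain that it needs at the cell surface. AB015432_s_at of Slc7a5 had scaled intensities of 1945 early, 1320 intermediate and 1224 late, against 820 in sham and 775 in untreated lung. Each exposed array lay above both controls, as did 36.8% of all probe sets early, 45.5% intermediate and 42.9% late. The controls differed by 1.06-fold between themselves. The early array was 2.37-fold above sham and 2.51-fold above untreated. The intermediate array was 1.61-fold and 1.70-fold above them and the late array 1.49-fold and 1.58-fold.

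Slc3a2 was not called in any phase. AB015433_s_at had scaled intensities of 6194, 4827 and 3904 in the early, intermediate and late pools, against 4494 in sham and 4452 in untreated lung. The early array was 1.38-fold above sham, and the late array lay below both controls. X89225cds_s_at read 4796, 1632 and 2205 on the exposed arrays, against 2767 in sham and 2160 in untreated lung. Here the early array was 1.73-fold above sham and 2.22-fold above untreated, while the intermediate array was the lowest of all 5. The 2 probe sets shared the early maximum but differed in the intermediate phase, where with median scaling they lay on opposite sides of the controls. That side depends on the scaling. AB015433_s_at was below both controls with values as deposited (log2 difference from the nearer control -0.022) and with quantile normalization (-0.052), as was X89225cds_s_at (-0.543 and -0.523).

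The regulators divided. Trib3 is a pseudokinase that in human and mouse cells is induced by ATF4 and CHOP and restrains both. Its probe sets come from a single expressed sequence tag. The probe set rc_H31287_g_at had scaled intensities of 841 early, 468 intermediate and 395 late, against 357 in sham and 285 in untreated lung. The early array was 2.36-fold above sham and 2.95-fold above untreated. The probe set rc_H31287_at was above the floor on the intermediate array at 213 and on the untreated array at 467, and under it on the early, late and sham arrays. It therefore had its highest value where the other had its lowest. The early Trib3 call rests on the first of the pair alone.

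Ddit3, the transcription factor CHOP, had scaled intensities of 785 early, 720 intermediate and 479 late, against 475 in sham and 540 in untreated lung. The early array was 1.65-fold over sham and 1.45-fold over untreated, and the intermediate array 1.51-fold and 1.33-fold. The late array lay between the controls. Nupr1 is a small stress-induced chromatin protein. It read 1696, 1365 and 1121 in the early, intermediate and late pools, against 1304 in sham and 1177 in untreated lung, or 1.30-fold and 1.44-fold above sham and untreated early. Neither gene was called in any phase.

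Eif4ebp1 binds the cap-binding factor eIF4E and holds back translation when not phosphorylated. In mouse cells it is also a target of ATF4. Its probe set U05014_g_at read 1206, 1536 and 1410 in the early, intermediate and late pools, against 1035 in sham and 997 in untreated lung. The intermediate array was the highest, 1.48-fold above sham and 1.54-fold above untreated. U05014_at read 809, 552 and 650 on the exposed arrays, against 610 in sham and 521 in untreated lung, with its maximum early. For rc_AI178828_i_at the exposed arrays held 1533 to 1585, against 1286 to 1296 on the controls. No Eif4ebp1 probe set was called.

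On the intermediate array no member was called higher or lower, against 0.856% and 0.352% of 5959 probe sets. Of the 17 measured members 13 were above both controls by any amount, against 45.5% of all probe sets, and 1, X89225cds_s_at of Slc3a2, was below both, against 20.9%. These counts depend on the scaling. With values as deposited AB015433_s_at of Slc3a2 (-0.022) and U05014_at of Eif4ebp1 (-0.054) were also below both, by the log2 difference from the nearer control. The largest smaller-of-both difference among the members was 0.69 on the log2 scale, for Slc7a5, followed by 0.60 for Asns and 0.57 for U05014_g_at of Eif4ebp1. On the late array no member was called either, against 0.59% higher and 0.994% lower of 5935 probe sets. Slc7a5 at 0.58 and Asns at 0.54 again led, and 11 of 17 were above both controls, against 42.9% of all probe sets, and 2 were below both, against 1304 of 5935 probe sets. With values as deposited Ddit3 (-0.134) and X89225cds_s_at of Slc3a2 (-0.055) were also below both on the late array. Over all probe sets the share of higher among the calls was 70.8% on the intermediate array, but 42.9% with values as deposited. On the late array it was 37.2% and 23.5%. Measured from the mean of both controls, the members' median difference was 0.52 early, 0.37 intermediate and 0.21 late, beside -0.02, 0.09 and 0.07 for all probe sets.

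**Figure D2:**
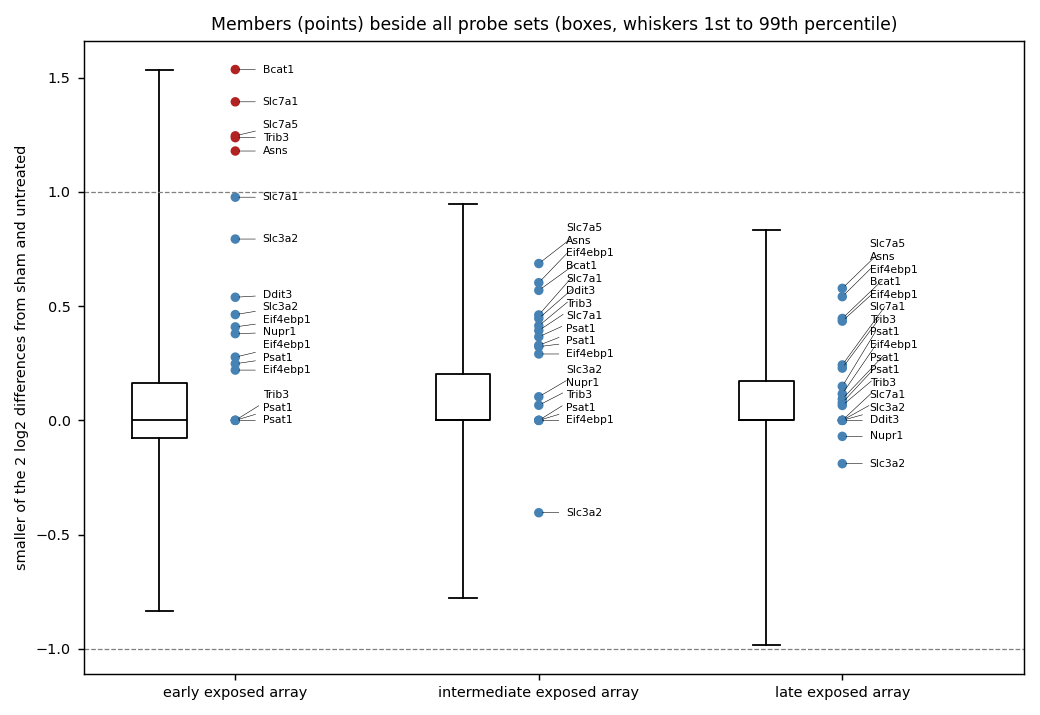
Smaller of the log2 differences from the sham and the untreated array for each measured member probe set (points, red where called), beside all measured probe sets as boxes with whiskers from the 1st to the 99th percentile, by exposed phase. The 5 called members lie between 1.18 and 1.54 on the early array, and no point passes the dashed lines at 2-fold on the later arrays.

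Over the 5 arrays the early array held the highest value of 11 of the 17 measured member probe sets, the intermediate array of 4, the late and untreated arrays of 1 each and the sham array of 0. Over all 6188 probe sets above the floor the early array was highest for 22.8%, the intermediate for 26.2%, the late for 19.1%, the sham for 15.2% and the untreated for 16.8%. Saline instillation against no instillation gave no member called higher and 1 called lower, rc_H31287_at of Trib3, among the 15 measured there. The background was 1.8% higher and 2.08% lower of 5733 probe sets. The share of higher among these calls was 46.4%, and 62.4% after scaling to the 75th percentile of each array.

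Several measures of the arrays moved with the early values. Control transcripts carry probe sets at both ends, and their 5′ to 3′ ratio, lower in incomplete RNA or cDNA, was highest on the early array. For beta-actin it was 43.1%, 9.07% and 19.6% in the early, intermediate and late pools, against 14.7% in sham and 24.4% in untreated lung. The untreated array had the second highest ratio. It held the lowest value of Asns, Slc7a5, U70476_at of Slc7a1 and rc_H31287_g_at of Trib3, and the highest value of rc_H31287_at of Trib3. The neutrophil markers S100a8 and S100a9, the 2 of 4 listed markers on the array, summed to 4971, 4048 and 2628 on the exposed arrays, against 2155 in sham and 1519 in untreated lung, and both were above the floor. Slc7a5, Asns and rc_H31287_g_at of Trib3 had the same order of the 5 arrays. The part of either measure in the early values was not tested. In a bulk pool more cells of a type and more RNA per cell cannot be told apart. The label lung was checked by alveolar type 2 markers, of which all 4 were above the floor, as were all 4 listed cardiac muscle markers. Of 6 listed macrophage markers 3 were on the array, of which Cd14 and Lyz2 were above the floor and Csf1r was under it on every array. They summed to 46323, 66041 and 65149 on the exposed arrays, against 53681 in sham and 48950 in untreated lung, lowest on the early array, while Cd14 by AF087943_s_at was itself called higher early. The cardiac muscle markers summed to 15932, 30093 and 12273 on the exposed arrays, against 23620 in sham and 41416 in untreated lung.

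**Figure D3:**
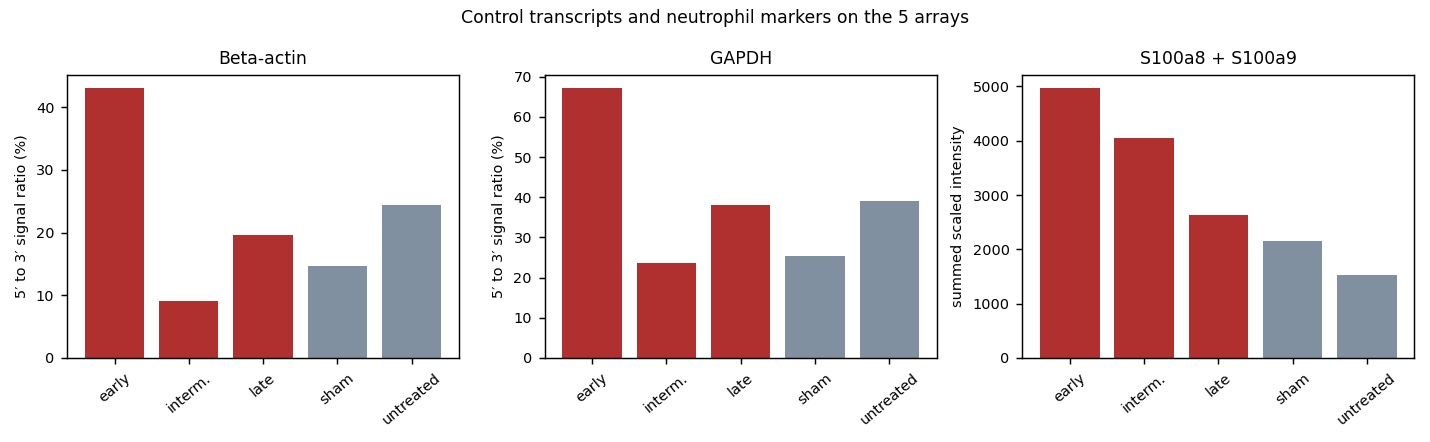
Ratio of 5′ to 3′ signal (%) of the control transcripts beta-actin and GAPDH, and the summed scaled intensity of the neutrophil markers S100a8 and S100a9, on the 3 exposed arrays (red) and the sham and untreated arrays (grey). The early array is highest in each panel, with GAPDH at 67.2%, and the untreated array is second in both ratios and lowest in the neutrophil sum.

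The genes with the profile most like a member were sought among 3683 probe sets above the floor on all 5 arrays. Likeness was the root mean square difference of log2 values over the 5 arrays, each centred on its own mean. For Slc7a1 the nearest were S100a8, a calcium-binding protein of granulocytes (0.12), and Fgg, the fibrinogen gamma chain (0.12 and 0.13 for its 2 probe sets). For rc_H31287_g_at of Trib3 they were Atic, an enzyme of purine synthesis (0.067), Nfkbia, the inhibitor of NF-kB (0.079), and Fgg (0.10). For Slc7a5 they were the metal ion transporter Slc11a2 (0.076), the heat shock cochaperone Dnaja1 (0.087) and Insig1, a regulator of sterol synthesis (0.10). Dnaja1, for example, read 2468, 1989 and 1608 on the exposed arrays, against 1071 in sham and 1061 in untreated lung.

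Other genes of the pathway were taken from 9 lists of 173 genes, of which 92 were on the array with 163 probe sets of a single symbol. The lists were chosen with earlier results of these data known, so their shares are a description and not evidence for the pathway. On the early array 19 of 137 measured probe sets were called higher and none lower, beside 3.3% and 0.472% of all probe sets. On the intermediate array 4 of 138 were higher and none lower, beside 0.856% and 0.352%. On the late array none of 135 was called in either direction, beside 0.59% higher and 0.994% lower. Measured from the mean of both controls, their median difference was 0.26 early, 0.16 intermediate and 0.15 late. The same medians over all probe sets are given above for the members.

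The transcription factor list had 5 of 13 probe sets called higher early, with a median of 0.68. Atf3, a stress-induced partner in the ATF4 network, read 3209 early, 755 intermediate and 1124 late, against 878 in sham and 788 in untreated lung, and was the only probe set of its gene. Cebpd was called by 2 of its 3 probe sets, at 2.59-fold and 5.44-fold above sham and untreated for M65149_at and 5.56-fold and 8.35-fold for rc_AI045030_s_at, while the third read 281 against 433 in sham and 270 in untreated lung. Cebpb was 2.76-fold and 2.06-fold above sham and untreated by S77528cds_s_at, and another probe set, X60769mRNA_at, at 7643 against 5689 in sham and 4839 in untreated lung, was not called. Crem, a cyclic AMP responsive regulator, exceeded sham at least 2.81-fold and untreated 2.24-fold by S66024_g_at, 1 of its 4 probe sets.

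In the list of eIF2 kinases and phosphatases 1 of 18 probe sets was called higher early and the median was 0.12. It belongs to Ppp1r15a, GADD34, the subunit that directs phosphatase to eIF2 and so restores translation. AF020618_at read 1155 early, 269 intermediate and 308 late, against 262 in sham and 317 in untreated lung. Its companion AF020618_g_at read 2584 early, against 1325 in sham and 1076 in untreated lung, short of a call against sham.

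The aminoacyl-tRNA synthetase list had only 6 of its 22 genes on the array. Its 5 measured probe sets were all above both controls by any amount on the early and intermediate arrays. Over all probe sets 36.8% were above both early and 45.5% intermediate. The list medians were 0.75 early, 0.73 intermediate and 0.51 late. On the late array 3 of the 5 were above both controls and 2 below both, the lowest at -0.46 from their mean. The 1 called was Aimp2, a scaffold of the synthetase complex and not itself a synthetase, at 1045, 696 and 681 on the exposed arrays, against 463 in sham and 294 in untreated lung. The other amino acid transporters had a median of -0.11 early, but 0.51 with the floor at the 20th percentile. With the main floor 1 of 10 was called. That was Slc1a1, the glutamate and aspartate carrier, by AF038571_s_at at 2.98-fold above sham and 4.00-fold above untreated. A second probe set, D63772_at, read 2139, against 1198 in sham and 1007 in untreated lung, and was not called.

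Serine, glycine and folate-linked enzymes had a median of -0.14 early. The only 1 of 7 called was Mat2a, which makes S-adenosylmethionine, at 555 early, against 204 in sham and 185 in untreated lung. Other amino acid enzymes had a median of -0.08, with 12 of 26 below both controls by any amount, or 46.2% beside 31.2% of all probe sets, and 1 called higher. That was Glul, glutamine synthetase, by rc_AA852004_s_at at 2015 early, against 788 in sham and 684 in untreated lung, while its other 3 probe sets were not called.

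Other ATF4 and stress targets had 4 of 16 probe sets called early and a median of 0.80, from the 2 genes Hmox1 and Gadd45a. Hmox1, heme oxygenase, read 15565 early by rc_AI179610_at, against 4745 in sham and 1700 in untreated lung, with sham itself above untreated. Gadd45a, a growth arrest gene, was 2.09-fold and 2.10-fold above the controls by L32591mRNA_at and 2.33-fold and 2.38-fold by its companion, and its other 2 probe sets were not called. None of 19 probe sets of mTORC1 and cap-binding translation factors was called, and their median was 0.09. Rps6, a protein of the small ribosomal subunit, by M29358_g_at read 20488, 32361 and 29981 on the exposed arrays, against 23770 in sham and 23191 in untreated lung. Eef2, the translocation factor of the ribosome, read 24323, 27809 and 30034 by rc_AI178750_at, against 23730 in sham and 22362 in untreated lung. Its other probe sets were dimmer and differed in shape. On the early array rc_AA892801_at read 485, against a value under the floor in sham and 278 in untreated lung. Its companion rc_AA892801_g_at read 464 early, against a value under the floor in sham and 450 in untreated lung. For rc_AA963674_at the early value was 1175, against 1490 in sham and 1303 in untreated lung.

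Endoplasmic reticulum chaperones had 5 of 23 probe sets called higher early, beside 3.3% of all probe sets, and 4 of 24 intermediate, beside 0.856%, with medians of 0.45 early, 0.60 intermediate and 0.34 late. The early calls included P4hb by M21476_s_at (1196, against 281 in sham and 342 in untreated lung), Calr by X53363cds_s_at (2984, against 953 in sham and 1118 in untreated lung) and Canx by L18889_at (1360, against 553 in sham and 454 in untreated lung). Other probe sets of these 3 genes were brighter and not called early. X02918_at of P4hb read 15055, against 10033 in sham and 9421 in untreated lung. D78308_at of Calr read 13579, against 12108 in sham and 9779 in untreated lung. The brightest Canx probe set, rc_AI010725_g_at, lay below both controls early, at 7520 against 8149 in sham and 9121 in untreated lung. Hspa5, the chaperone BiP, was called on the intermediate array by 2 of 3 probe sets, with M14050_s_at at 6876, 9826 and 5240 on the exposed arrays, against 4076 in sham and 3594 in untreated lung. Its maximum was in the intermediate phase.

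**Figure D4:**
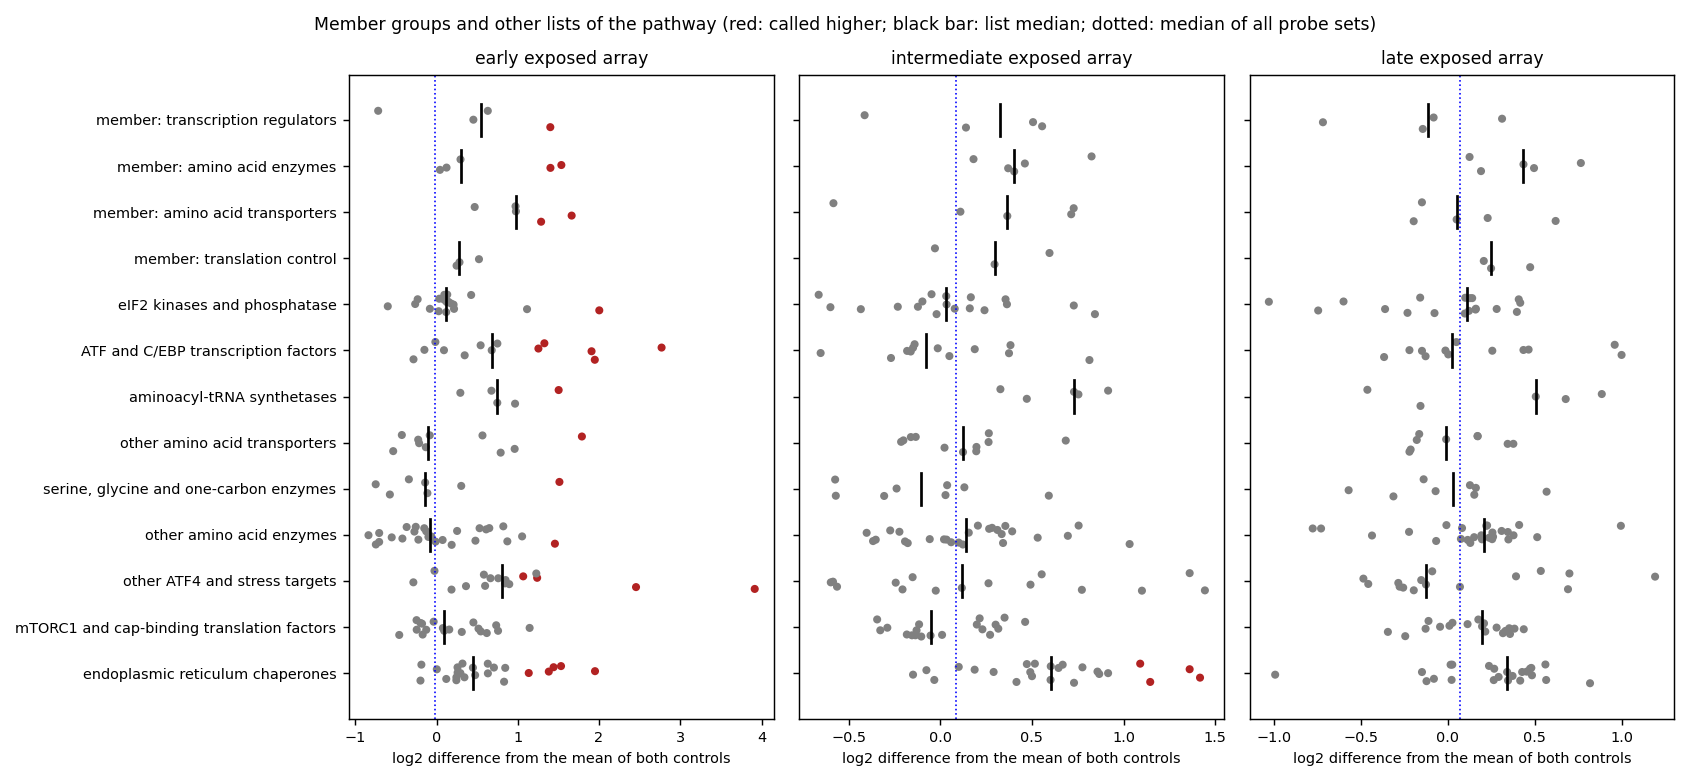
Log2 difference of each measured probe set from the mean of the sham and untreated arrays, for the 4 groups of members and 9 other lists of the pathway on the early, intermediate and late arrays; black bars are list medians, the dotted line the median of all probe sets and red points are called higher. On the early array the member transporters have a median of 0.98 and the transcription factors 0.68, while the endoplasmic reticulum chaperones reach their highest median, 0.60, on the intermediate array.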

How the data were processed

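Each of the 5 samples, 1 per group by its title, had 1 array. The authors deposited a linear intensity per probe set, not below 0; the 2% trimmed means, from 1001.38 to 1001.63, are read from the values as scaling by the authors between arrays. How the intensities were computed is not stated in the sources used here. Of 8799 probe sets, 59 controls served only for 5′ to 3′ ratios. Median intensity was 262 to 301, and 5191 to 5346 of 8740 probe sets were above the floor. The platform annotation gave 7006 probe sets a single symbol, 308 several and 1426 none. RefSeq's table (GRCr8) changed no symbol. Intensities were multiplied by 0.931 to 1.07 to equal medians, floored at the 40th percentile and taken to log2 (Python 3.11.15, pandas 2.3.3, numpy 2.4.6). A call needed a 2-fold difference from both controls, on probe sets above the floor on at least 1 array compared. No test was run. Scaling, floor, a pseudocount, each control alone, the fold and probe sets from expressed sequence tags were varied. The call rule was tested on simulated data, with changes larger than 2-fold planted in bright probe sets only. That run does not cover dim members or changes near 2-fold. Its controls were drawn around a shared level with a noise fixed in advance. It therefore does not cover the differences between the real sham and untreated arrays. The members and lists were chosen with earlier results of these data known. Pathway genes named were up to 4 per list with a call, by size, or the 2 with the highest mean log2 value where none was called.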

Additional observations from a re-analysis of the deposited data

Results flagged for a closer look

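Both Slc3a2 probe sets and the Nupr1 probe set lay above both controls on the early array and below both on a later one, by the log2 difference from the nearer control. The values were 0.463 early and -0.190 late for AB015433_s_at of Slc3a2, 0.794 early and -0.404 intermediate for X89225cds_s_at of Slc3a2, and 0.379 early and -0.070 late for Nupr1. Each phase has 1 array, so this difference between phases was not tested. The beta-actin 5′ to 3′ ratio, which was highest on the early and lowest on the intermediate array, has the same extremes as X89225cds_s_at; its part was not tested.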

How the results depend on the processing

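The number of members called higher on the early array was 5, and lay between 4 and 7 with all alternatives other than the following. It was 1 with the floor at the 60th percentile, where Slc7a5 remained, and 0 at 3-fold. Of single members, Asns had a smaller log2 difference of 0.996 with 75th percentile scaling and 0.916 with log2(value + 100), just short of a call. No called member changed direction under the scalings, floors, pseudocount and single controls tried. The members called lower on sham against untreated were 1, but 2 with the floor at the 20th percentile and 0 with it at the 60th, at 3-fold and without probe sets from expressed sequence tags, and 1 was called higher at 1.5-fold. On the intermediate and late arrays 1 member each was called higher with the floor at the 20th percentile (Bcat1), 1 on the intermediate array against untreated alone (Asns) and 2 there at 1.5-fold. Against untreated alone 1 member was lower in each phase, rc_H31287_at of Trib3. For the pathway lists, the early higher calls were 19, but 35 at 1.5-fold and 6 at 3-fold. The intermediate ones were 4, but 2 as deposited and with quantile normalization, 8 against sham alone, 11 against untreated alone, 16 at 1.5-fold and 0 at 3-fold. Late higher calls, 0 otherwise, were 1 with the low floor and with log2(value + 100), 3 against sham alone, 6 against untreated alone and 3 at 1.5-fold. Lower pathway calls, 0 otherwise, were 1 early, 1 intermediate and 2 late with the low floor, 1 late with log2(value + 100), 2 early, 2 intermediate and 4 late against sham alone, 1 in each phase against untreated alone, and 4 early, 1 intermediate and 3 late at 1.5-fold. Over all probe sets the calls, main value first and then the range over the alternatives, were 196 (56 to 491) higher and 28 (1 to 186) lower early, 51 (11 to 274) and 21 (1 to 130) intermediate, 35 (5 to 178) and 59 (7 to 208) late, and 103 (14 to 570) and 119 (9 to 496) for sham against untreated. Medians of the pathway lists moved as well. For the other amino acid transporters the early median was -0.11, but 0.51 with the low floor. For the transcription factors it was 0.68, but 1.04 with the low floor. For the other ATF4 and stress targets it was 0.80, but 0.64 with 75th percentile scaling. The intermediate median of the endoplasmic reticulum chaperones was 0.60, but 0.43 with values as deposited. Dim members such as Bcat1, Asns and rc_AA957917_s_at of Slc7a1 are limited by the floor. No paired analysis was possible because each group has 1 array.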
